A study of Mus musculus with 12 samples.

Results

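Stem cells from hair follicles of mouse back skin, with and without the transcription factor Foxc1, were compared in early telogen, the start of the resting phase of the hair cycle. The 7 libraries of the early telogen count table were used, 4 knockout (KO) and 3 wild-type (WT), out of 12 in the series. The other 5 were anagen (growth phase) libraries, which enter where the stages are set side by side and in fits named as holding all 12 libraries. KO mice were K14-H2BGFP, K14Cre, Foxc1 fl/fl and WT mice were K14-H2BGFP, Foxc1 fl/fl, so every mouse carried the floxed alleles and the fluorescent histone, and the controls had no Cre at all. K14, the keratin 14 promoter, is active in basal cells of the epidermis and of the follicle, so deletion need not be limited to the stem cells. All 7 libraries carried an age label of postnatal day 47. KO replicates 1, 3 and 5 and WT replicates 1 and 3 were labelled female, and KO replicate 2 and WT replicate 4 male. KO replicate 5 was titled P43, against its age label of day 47. It was also the shallowest library, with 2662083 counts over genes against 6130867 to 11821916 in the other 6.

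Cells had been sorted as H2BGFP positive, Sca-1 negative, CD34 positive and CD49f positive. Hair follicle stem cells sit in the bulge of the follicle and stay out of the cell cycle for most of the hair cycle. They divide briefly when a new hair is made, and signals such as BMP, FGF18 and retained older bulge layers hold them at rest in telogen. Foxc1 is a forkhead transcription factor known from work on these cells to be switched on in activated stem cells and to help return them to rest. A cell that prepares to divide first copies its DNA and then builds a spindle, kinetochores and a contractile ring, and the genes for those late steps are switched on together shortly before mitosis.

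The labelled cell type was checked against its markers. Krt15, a keratin of bulge cells, was at 5578 to 10789 CPM (counts scaled to a library total of 1000000 over genes) across the 7 libraries and Sox9, a stem cell transcription factor, at 444 to 1208 CPM. Lgr5 and Lhx2, stem cell markers of the same compartment, lay between 88.1 and 232 CPM. Ly6a, which encodes the excluded surface protein Sca-1, was at 2.13 to 9.02 CPM in 6 libraries and at 56.0 CPM in KO replicate 2.

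Values by library are given below in the order KO replicates 1, 2, 3 and 5, then WT replicates 1, 3 and 4. Foxc1 (chromosome 13, 31806633 to 31812476, GRCm38, 1 exon) was at 2.28, 3.11, 0.910 and 1.13 CPM in KO and 43.8, 59.1 and 61.2 CPM in WT. Every KO library thus lay far below every WT library, KO replicate 5 included. The log2 fold change, KO minus WT with its model SE, was -4.99 ± 0.32 (edgeR adjusted p = 8.63e-06). Which bases the Cre removes is not given in the sources used here. Of the 17 forkhead genes tested, Foxc1 was the only 1 that passed, and Foxp1, a forkhead gene tied to stem cell rest, had a log2 change of -0.53 (edgeR adjusted p = 0.295).

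Of 12030 genes tested, 60 rose in KO (0.499%) and 55 fell (0.457%), 0.956% in all, at an edgeR adjusted p under 0.05. The genes that rose changed by 0.85 to 6.88 on the log2 scale with a median of 1.77, and the falls ran from -7.91 to -0.85 with a median of -1.35. Cell division genes made up 20 of the 60 that rose and none of the 55 that fell. The KO and WT libraries did not overlap for 60 of 60 genes that rose and 54 of 55 that fell, and Cbr2 was the exception. Over all genes tested the KO libraries lay wholly above WT for 9.75% and wholly below for 3.37%. With scaling by library totals alone the median of all genes moved up by 0.18 on the log2 scale and the split of calls went from 52.2% higher and 47.8% lower to 67.4% higher and 32.6% lower.

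**Figure D1:**
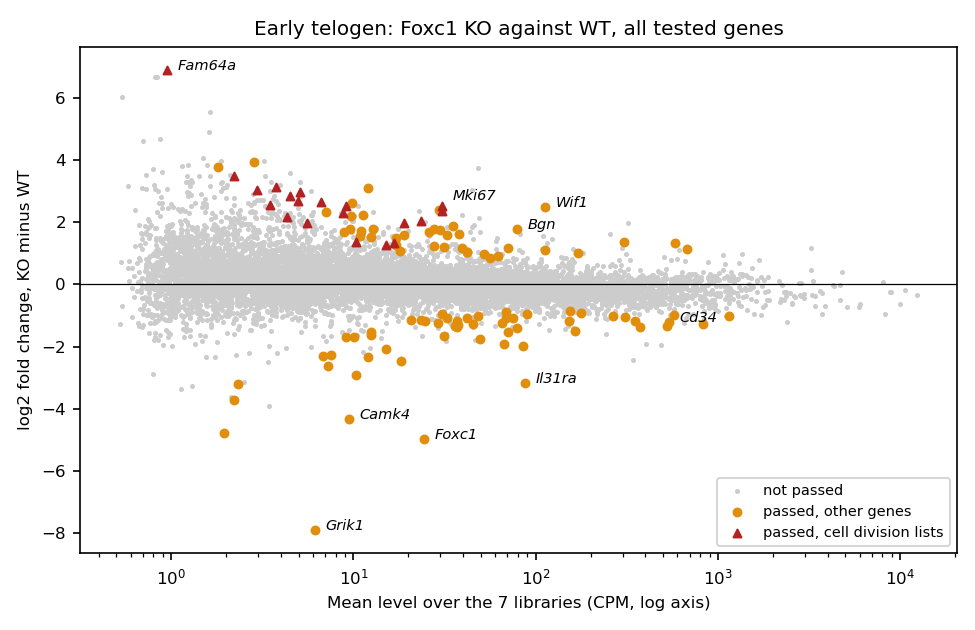
Log2 fold change, KO minus WT, against mean level in CPM (log axis) for all 12030 tested genes; coloured points passed at an edgeR adjusted p under 0.05, and triangles are cell division genes. The triangles lie above 0 in 20 of 20 cases, and Foxc1 and Grik1 are the named points at the bottom.

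The counts depended on single libraries. Without KO replicate 5, 9 genes rose and 15 fell, and without WT replicate 3, 9 rose and 10 fell. Leaving out KO replicate 1 gave 26 and 21, WT replicate 1 gave 29 and 46, and WT replicate 4 gave 25 and 19. The calls held in each of the 7 leave-one-out fits were Anln, Arhgdib, Bgn, Car12, Mki67, Top2a, Tpx2 and Wif1 among the genes that rose, and Camk4, Enc1, Fchsd1, Fhdc1, Fmn1, Foxc1, Gpc6 and Grik1 among those that fell.

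Cell division genes rose without Foxc1, from the marker Mki67 to spindle, kinetochore and cytokinesis genes. The 6 lists of cell division genes, like the other gene lists used here, were chosen with earlier results of these data known. Across the 6 lists, 178 genes were tested, of which 20 rose and none fell, against 0.499% rising over all genes tested. Of the 178, 161 had a positive log2 fold change, with a median of 1.24 against 0.03 over all genes tested. The KO libraries lay wholly above the WT libraries for 97 of the 178 (9.75% over all genes tested) and wholly below for none (3.37%). At an unadjusted p under 0.05, 97 were higher (6.46% over all genes tested) and none lower (5.58%). In an edgeR fit of all 12 libraries of both stages, which share 1 estimate of the spread, none of the 194 cell division genes tested passed, and 99 were higher at an unadjusted p under 0.05. By DESeq2 60 cell division genes rose and by limma-voom 8. Without KO replicate 5 or WT replicate 3, 4 cell division genes passed, without WT replicate 1, 8, without KO replicate 1, 9, and without WT replicate 4, 12. Whether more of the sorted cells were dividing or each cell held more of these transcripts cannot be told apart in bulk libraries.

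The promoters of 6 of these genes are printed because many of the cell division genes that rose hold 2 short sequence elements known from late cell cycle genes. They belong to the 6 cell division genes of smallest p that have an entry, namely Mki67 (chr7:135716330-135716629, minus strand), Anln (chr9:22389157-22389456, minus), Top2a (chr11:99024140-99024439, minus), Arhgap11a (chr2:113848612-113848911, minus), Prc1 (chr7:80294201-80294500, plus) and Ube2c (chr2:164769679-164769978, plus). Each runs 5′ to 3′ from 250 bases before the RefSeq start to 50 after it (GRCm38.p6). Capitals mark the cell cycle genes homology region element, TTTGAA or its reverse complement TTCAAA, and the CCAAT box, CCAAT or its reverse complement ATTGG.
Mki67: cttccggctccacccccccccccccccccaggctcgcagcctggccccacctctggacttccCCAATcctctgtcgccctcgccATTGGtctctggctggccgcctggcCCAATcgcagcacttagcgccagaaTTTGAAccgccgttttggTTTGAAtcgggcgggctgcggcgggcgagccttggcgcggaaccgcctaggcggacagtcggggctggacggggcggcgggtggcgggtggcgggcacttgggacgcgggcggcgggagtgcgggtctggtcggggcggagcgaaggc
Anln: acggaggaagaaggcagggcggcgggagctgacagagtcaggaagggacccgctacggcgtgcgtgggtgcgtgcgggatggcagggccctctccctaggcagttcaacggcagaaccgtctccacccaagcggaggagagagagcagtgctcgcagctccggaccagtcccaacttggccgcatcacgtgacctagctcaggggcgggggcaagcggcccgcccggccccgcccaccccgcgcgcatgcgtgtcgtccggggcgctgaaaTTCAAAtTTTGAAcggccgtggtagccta
Top2a: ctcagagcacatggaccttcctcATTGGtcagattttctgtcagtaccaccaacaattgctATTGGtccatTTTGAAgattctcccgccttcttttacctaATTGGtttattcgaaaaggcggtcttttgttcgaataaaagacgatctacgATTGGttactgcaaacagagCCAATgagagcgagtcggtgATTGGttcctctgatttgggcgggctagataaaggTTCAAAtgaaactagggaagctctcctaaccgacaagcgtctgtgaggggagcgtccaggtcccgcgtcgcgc
Arhgap11a: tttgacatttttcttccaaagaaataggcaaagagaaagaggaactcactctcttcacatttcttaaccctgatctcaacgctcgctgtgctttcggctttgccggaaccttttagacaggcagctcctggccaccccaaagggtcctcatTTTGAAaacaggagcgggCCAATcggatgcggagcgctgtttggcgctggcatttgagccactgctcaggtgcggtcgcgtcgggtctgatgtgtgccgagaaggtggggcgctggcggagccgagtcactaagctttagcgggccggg
Prc1: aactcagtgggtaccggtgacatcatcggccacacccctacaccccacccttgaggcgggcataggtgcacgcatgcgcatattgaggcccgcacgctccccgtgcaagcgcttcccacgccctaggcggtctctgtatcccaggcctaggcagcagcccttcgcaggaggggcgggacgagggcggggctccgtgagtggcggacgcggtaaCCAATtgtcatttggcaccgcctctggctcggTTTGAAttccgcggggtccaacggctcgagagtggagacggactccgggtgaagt
Ube2c: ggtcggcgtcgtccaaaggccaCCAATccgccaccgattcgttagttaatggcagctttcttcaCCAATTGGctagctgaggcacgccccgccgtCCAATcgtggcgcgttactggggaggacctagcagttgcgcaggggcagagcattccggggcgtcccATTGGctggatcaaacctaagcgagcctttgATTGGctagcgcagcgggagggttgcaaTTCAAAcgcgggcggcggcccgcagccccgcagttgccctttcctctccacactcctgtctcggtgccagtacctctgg

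The first element is known as a binding site of the MuvB complexes, which repress late cell cycle genes in resting cells and activate them before mitosis, and the CCAAT box as a site of the factor NF-Y. In the Mki67 promoter the element lay at positions -116 and -98 from the start, and in Prc1 at -5 with a CCAAT box at -37. The Anln window held the element at 21 and 28 after the start and no CCAAT box. The Ube2c window held a forward and a reverse CCAAT box that overlap as CCAATTGG. Of the 20 cell division genes that rose, 16 had a promoter entry, and Tpx2, Kif20a, Casc5 and Fam64a had none under these names.

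The homology region element was in 12 of these 16 promoters (75%). It was in 44.4% of the 142 promoters of all tested cell division genes, 11.5% of the 8844 promoters of tested genes and 18.1% of all 27025 promoters of the same length. Among the other genes that rose it was in 4 of 27 (14.8%), and among those that fell in 3 of 41 (7.32%). The CCAAT box was in 12 of the 16 (75%), in 66.9% of the promoters of all tested cell division genes, in 38.5% of promoters of tested genes and 37.9% of all promoters. Both elements stood together in 10 of the 16 (62.5%), in 34.5% of the promoters of all tested cell division genes, in 5.03% of promoters of tested genes and in none of the 41 of genes that fell. An E2F site, TTTNGCGC on either strand, was in 4 of the 16 (25%), 13.4% of the promoters of all tested cell division genes and 2.59% of promoters of tested genes. A core forkhead site, TGTTTAC on either strand, was in 1 of the 16 (6.25%), 3 of the 27 of other genes that rose (11.1%), 2.4% of promoters of tested genes and none of those of genes that fell. These are matches of letters in a window and no measure of binding.

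Mki67 (chromosome 7, 135689784 to 135716361), which encodes Ki-67, a coat protein of mitotic chromosomes and the usual marker of cycling cells, was at 46.4, 48.6, 47.9 and 50 CPM in KO and 8.57, 5.65 and 8.48 CPM in WT. The 4 KO libraries were close to each other and all stood above the WT libraries, and KO replicate 5 was among the rest. The log2 fold change was 2.52 ± 0.22 (edgeR adjusted p = 9.65e-05). Cdk1, the kinase that drives entry into mitosis, was at 7.53, 9.33, 6.06 and 8.64 CPM in KO and 0.803, 0.649 and 1.96 CPM in WT. Again the groups did not overlap (log2 fold change 2.67 ± 0.48, edgeR adjusted p = 0.0236), but the call was lost without KO replicate 1 (0.0534), KO replicate 5 (0.0765), WT replicate 1 (0.0762) or WT replicate 3 (0.105). Ube2c, the ubiquitin-conjugating enzyme that works with the anaphase-promoting complex, was at 5.41, 9.06, 5.15 and 9.02 CPM in KO and 1.07, 0.556 and 0.979 CPM in WT, low counts in all WT libraries and a log2 change of 2.85 ± 0.48 (edgeR adjusted p = 0.0204). Ube2c kept its call in 4 of 7 leave-one-out fits. Mki67, Cdk1 and Ube2c were the members that rose among 28 tested mitotic kinases, cyclins and their regulators (0.499% rising over all genes tested). In all 27 of the 28 were positive, median 1.59.

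Other members of that list, named after their values were seen, did not pass. Foxm1, the forkhead factor of late cell cycle genes, was at 10.3, 12.7, 8.39 and 13.5 CPM in KO and 5.09, 3.62 and 2.61 CPM in WT (edgeR adjusted p = 0.088). Its groups did not overlap. Cyclin genes Ccnb1 and Ccna2 had log2 fold changes of 2.34 ± 0.79 and 1.77 ± 0.50 (edgeR adjusted p = 0.227 and 0.132).

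The spindle and cytokinesis genes were the list with the most calls, 10 of 35 tested (0.499% rising over all genes tested). Of the 35, 33 were positive with a median of 2.28. The summed level of the list was 257, 375, 304 and 371 CPM in KO and 84, 86.7 and 118 CPM in WT. The lowest KO sum stood above the highest WT sum. For 30 of the 35 genes the KO libraries lay wholly above WT (9.75% over all genes tested). Anln (chromosome 9, 22332012 to 22389188), anillin, a scaffold of the contractile ring, was at 29.7, 44.6, 38.5 and 29.3 CPM in KO and 7.05, 7.42 and 8.81 CPM in WT. It stood higher in 4 of 4 KO libraries than in any WT library, with a log2 change of 2.03 ± 0.23 (edgeR adjusted p = 0.00104). Prc1, which crosslinks microtubules of the central spindle, was at 26.3, 32.3, 27.7 and 27.4 CPM in KO and 4.82, 4.08 and 10.8 CPM in WT (log2 fold change 1.98 ± 0.31, edgeR adjusted p = 0.0134). WT replicate 4 was the highest of the controls and still below every KO library.

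Tpx2, a spindle assembly factor that activates Aurora A, was at 9.30, 9.77, 6.87 and 6.76 CPM in KO and 0.803, 0.742 and 1.30 CPM in WT, so that each KO library stood well above the controls (log2 fold change 2.96 ± 0.43, edgeR adjusted p = 0.00816). Arhgap11a, a GTPase-activating protein of dividing cells, was at 10.7, 15.5, 11.7 and 16.2 CPM in KO and 1.79, 2.22 and 3.43 CPM in WT (log2 fold change 2.28 ± 0.36, edgeR adjusted p = 0.0134). The remaining spindle and cytokinesis genes that rose were Iqgap3 (2.66), a scaffold protein of proliferating cells, Ect2 (2.52), an exchange factor that works at the cleavage plane, Kif20a (3.14) and Kif11 (1.98), mitotic kinesins, Nusap1 (3.02), a spindle microtubule binder, and Fam64a. Fam64a had 62 counts over the 4 KO libraries and 0 over the 3 WT libraries, at least 16.3-fold higher in KO against a floor of 3 counts over the group. Its call was lost in each of the 7 leave-one-out fits (edgeR adjusted p up to 0.167). Of those fits, Prc1 and Arhgap11a passed in 5, Iqgap3 in 4, Ect2 in 3, and Kif20a, Kif11 and Nusap1 in 1 each.

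**Figure D2:**
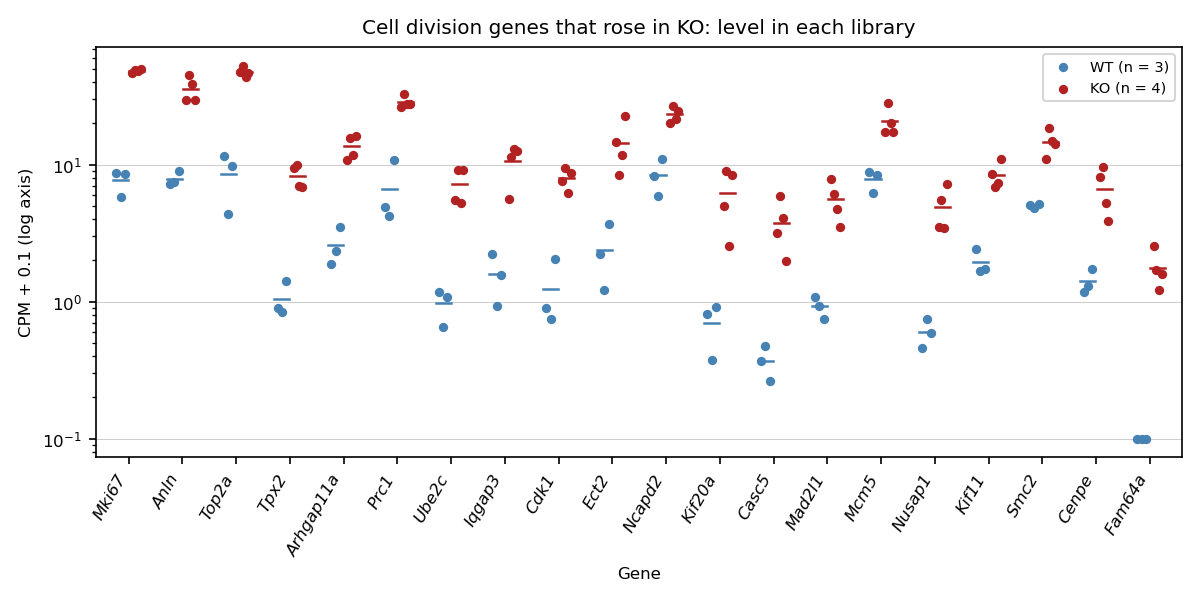
Level in each library, in CPM plus 0.1 on a log axis, of the 20 cell division genes that rose; points are libraries (4 KO, 3 WT) and bars are group means. KO points lie above WT points for each gene, and Fam64a has no WT counts.

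Kinetochore and checkpoint genes had 3 calls among 24 tested (0.499% rising over all genes tested). Of the 24, 23 were positive with a median of 1.60. Mad2l1, a component of the spindle checkpoint, was at 7.78, 6.04, 4.65 and 3.38 CPM in KO and 0.982, 0.834 and 0.652 CPM in WT. Casc5, a kinetochore scaffold, and Cenpe, a kinetochore motor, had log2 fold changes of 3.49 ± 0.69 and 2.17 ± 0.46 (edgeR adjusted p = 0.0328 and 0.043). All 3 are low in every library, and neither Casc5 nor Cenpe kept its call in any of the 7 leave-one-out fits. Mad2l1 kept its call in 1 of them.

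Chromosome structure genes had 3 calls among 30 tested (0.499% rising over all genes tested) and a median of 0.52. Top2a (chromosome 11, 98992943 to 99024189), the topoisomerase that untangles replicated DNA, was at 47.3, 52.5, 43.4 and 46.6 CPM in KO and 11.4, 4.26 and 9.62 CPM in WT. All KO libraries stood above all WT libraries, of which WT replicate 3 was lowest (log2 fold change 2.34 ± 0.28, edgeR adjusted p = 0.00146). The condensin subunits Ncapd2 and Smc2, which compact mitotic chromosomes, rose by 1.31 and 1.37 on the log2 scale. Smc2 lost its call in every leave-one-out fit and Ncapd2 passed in 3.

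Genes that copy DNA had 1 call among 41 tested (0.499% rising over all genes tested), and 37 were positive with a median of 0.66. Mcm5, a subunit of the replicative helicase, was at 17.2, 28.1, 20.1 and 17.3 CPM in KO and 8.66, 6.12 and 8.32 CPM in WT (log2 fold change 1.25 ± 0.25, edgeR adjusted p = 0.0332). Its groups did not overlap, and the call was lost in each leave-one-out fit (edgeR adjusted p up to 0.182). Named after their values were seen, the helicase subunit Mcm2 was at 1.41 ± 0.35 on the log2 scale (edgeR adjusted p = 0.0924) and Rrm2, of ribonucleotide reductase, at 0.34 ± 0.20 (edgeR adjusted p = 0.535). Of 20 DNA repair genes none passed in edgeR, and 5 rose by DESeq2. In edgeR 7 were higher at an unadjusted p under 0.05 (6.46% over all genes tested). In all 17 were positive, with a median of 1.01 (0.63 without KO replicate 2 and WT replicate 3), and Rad51ap1 and Chek1, the members of smallest p, had edgeR adjusted p of 0.0621 and 0.0689. Whether the lists differed from each other was not tested.

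Regulators of the entry into the cycle did not pass. Of 17 tested G1 regulators none passed in edgeR, and DESeq2 called 1 each way. In edgeR 4 were higher and 1 lower at an unadjusted p under 0.05 (6.46% and 5.58% over all genes tested). In all 15 were positive, with a median of 0.44. Ccnd1 and Ccnd2, the D-type cyclins, had log2 fold changes of 0.39 ± 0.24 and 0.44 ± 0.22. Myc was at 472, 444, 483 and 459 CPM in KO and 639.6, 900.4 and 643 CPM in WT, lower in each KO library (edgeR adjusted p = 0.111). None of 19 cell cycle inhibitors passed in edgeR, and 1 fell by DESeq2. In edgeR 1 was higher and 3 lower at an unadjusted p under 0.05 (6.46% and 5.58% over all genes tested). Cdkn1a, which encodes p21, was at 538, 703, 787 and 918 CPM in KO and 977, 1314 and 1004 CPM in WT, without overlap and without a call (edgeR adjusted p = 0.219). The inhibitor Cdkn1b, p27, had a log2 fold change of 0.39 ± 0.24 and overlapping groups.

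**Figure D3:**
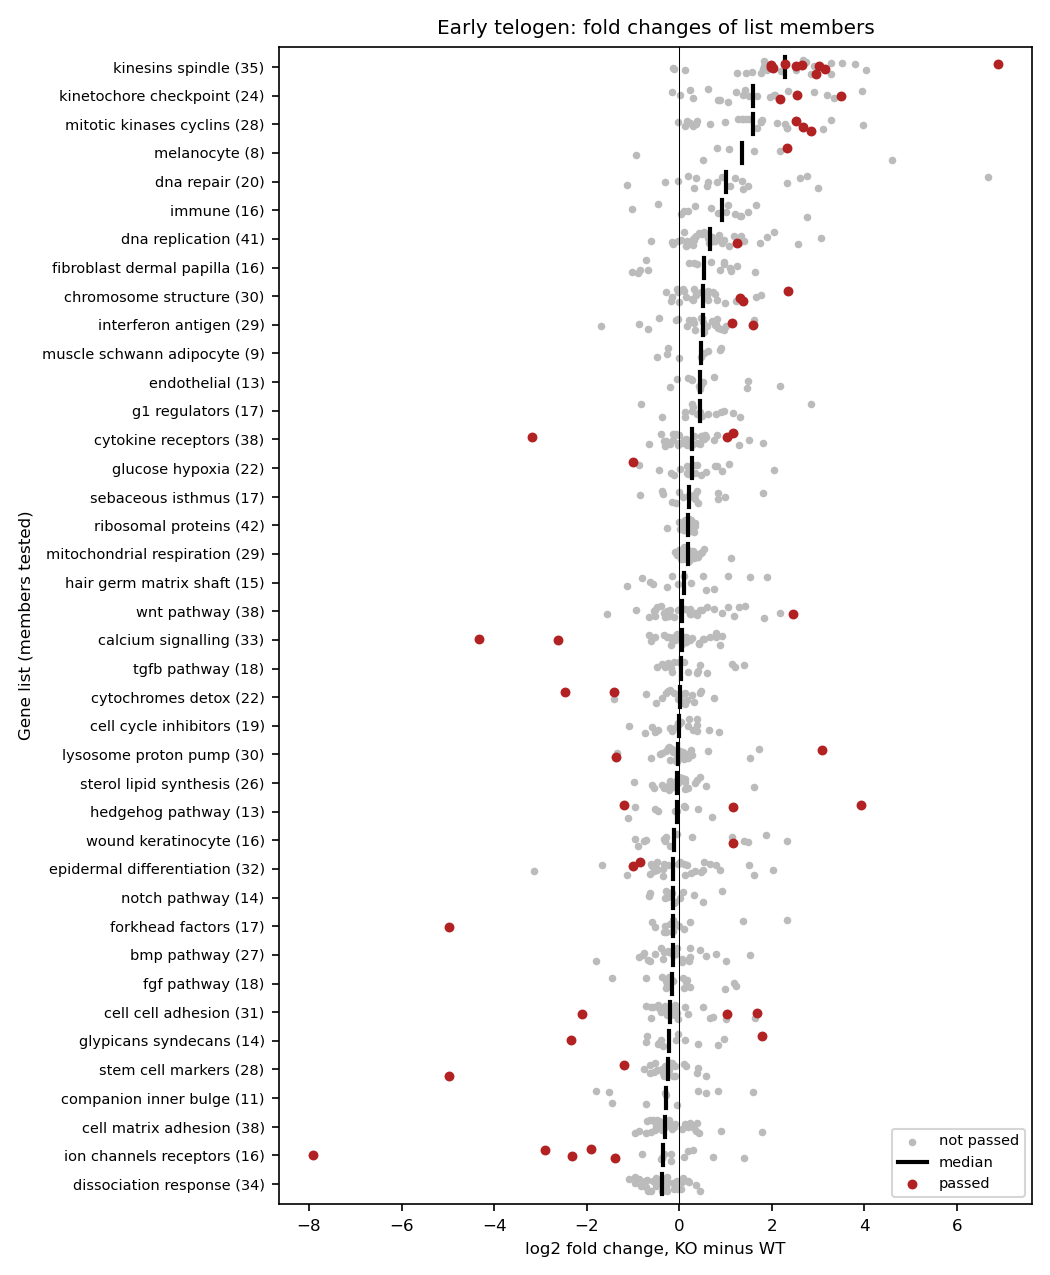
Log2 fold change, KO minus WT, of each tested member of the 40 gene lists, ordered by median (black bar); red points passed at an edgeR adjusted p under 0.05 and the number tested is in parentheses. The spindle, kinetochore and mitotic kinase lists stand at the top with medians of 2.28, 1.60 and 1.59, and the ion channel list near the bottom holds 5 red points, all below 0.

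Among signalling genes, the strongest change outside cell division was in Wif1 (chromosome 10, 121033960 to 121100650), a secreted protein that binds and blocks WNT ligands. Wif1 was at 149, 199.7, 138 and 214 CPM in KO and 23.2, 20.8 and 40.6 CPM in WT. KO replicate 3, the lowest of its group, stood far above WT replicate 4, the highest of the controls (log2 fold change 2.47 ± 0.26, edgeR adjusted p = 0.000669). Wif1 was the only 1 of 38 tested WNT pathway genes to pass (0.499% rising over all genes tested). Of the 38, 21 were positive with a median of 0.066. Without KO replicate 2 and WT replicate 3 there were 15 positive with a median of -0.079.

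In the hedgehog pathway, which drives growth of the hair germ, 2 of 13 tested genes rose and 1 fell. Over all genes tested 0.499% rose and 0.457% fell. Gli1 (chromosome 10, 127329882 to 127341974), a transcription factor and a target of the pathway, was at 72.8, 110.1, 91.7 and 104 CPM in KO and 44.7, 28.3 and 40.1 CPM in WT. Its KO libraries lay above the WT libraries (log2 fold change 1.16 ± 0.20, edgeR adjusted p = 0.0204), and the call was lost without KO replicate 5 (0.0672), WT replicate 3 (0.127) or WT replicate 4 (0.0723). Ptch1, the main receptor, named after its values were seen, had overlapping groups and a log2 change of 0.71 ± 0.36 (edgeR adjusted p = 0.465). Scube2, a secreted protein that helps release hedgehog ligands, was at 22.7, 34.3, 23.8 and 22.2 CPM in KO and 56.5, 51.5 and 46.6 CPM in WT, and fell by 1.18 in log2 units (edgeR adjusted p = 0.0108).

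Factors known to hold stem cells at rest were measured too. None of 27 BMP pathway genes passed in edgeR, and 1 fell by DESeq2. In edgeR 1 was higher and 6 lower at an unadjusted p under 0.05 (6.46% and 5.58% over all genes tested). Of the 27, 11 were positive, and the median of -0.14 turned to 0.05 with scaling by library totals and was -0.021 without KO replicate 2 and WT replicate 3. Bmp6, a BMP of the inner bulge layer, was at 23, 11, 34.3 and 28.9 CPM in KO and 51.3, 88.3 and 88.6 CPM in WT. Its KO libraries all lay below the WT libraries, KO replicate 2 lowest, yet the gene did not pass (log2 fold change -1.80 ± 0.43, edgeR adjusted p = 0.12). Fgf18 was at 8.54, 5.51, 2.53 and 7.14 CPM in KO and 22.9, 12.1 and 7.83 CPM in WT, where KO replicate 1 overlapped WT replicate 4 (edgeR adjusted p = 0.147), and none of 18 FGF pathway genes passed in edgeR, while 2 fell by DESeq2. The NOTCH list (14 tested) and the TGFB list (18 tested) had no edgeR calls, and DESeq2 called 1 TGFB gene higher. Krt75, a keratin of the companion layer and of the retained inner bulge cells, was at 5.92, 5.86, 2.83 and 6.39 CPM in KO and 10.9, 11.9 and 16.5 CPM in WT, lower in every KO library, with an edgeR adjusted p of 0.0505, just over the threshold. None of the 11 companion and inner bulge genes tested passed in edgeR, and 3 fell by DESeq2. In edgeR 1 was higher and 3 lower at an unadjusted p under 0.05 (6.46% and 5.58% over all genes tested). Of the 11, 4 were positive, and the median of -0.29 turned to 0.17 without KO replicate 2 and WT replicate 3.

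Further genes that rose stand outside the gene lists. Pdgfc, a platelet-derived growth factor, was at 13.4, 18.6, 18.9 and 18.4 CPM in KO and 2.14, 3.34 and 4.57 CPM in WT (log2 fold change 2.21 ± 0.34, edgeR adjusted p = 0.0116). KO replicate 1 was the lowest of the KO libraries and stood above all WT libraries. Tgfa, a ligand of the EGF receptor, rose by 0.85 on the log2 scale, and Pappa, a protease that frees IGF, by 1.77. Car12, a carbonic anhydrase of the cell surface, was at 61.2, 78.7, 35.1 and 44 CPM in KO and 16.4, 14.3 and 16 CPM in WT, and Panx1, a channel that releases ATP, at 31.4, 32.3, 38.6 and 47.7 CPM in KO and 13, 8.53 and 9.95 CPM in WT. Both were higher in all KO libraries (log2 fold change 1.62 ± 0.23 and 1.67 ± 0.25, edgeR adjusted p = 0.00597 and 0.0108). Of the 7 leave-one-out fits, Car12 passed in 7, Panx1 in 6, Pdgfc in 5, Pappa in 2 and Tgfa in 1.

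Among stem cell markers, 2 of 28 tested fell (0.457% over all genes tested), Foxc1 itself and Cd34, and 5 were positive. Their median was -0.24 and remained below 0, at -0.07, with scaling by library totals. Cd34 (chromosome 1, 194938819 to 194961279), a surface protein of bulge cells and a protein of the sorting gate, was at 349, 357, 365 and 417 CPM in KO and 647, 845 and 787 CPM in WT. Each KO library held less than every WT library (log2 fold change -1.20 ± 0.21, edgeR adjusted p = 0.0212), and the call was lost without KO replicate 1 (0.0692), KO replicate 5 (0.0551), WT replicate 3 (0.125) or WT replicate 4 (0.0814). Sox9 was at 750.4, 444, 1080.2 and 651 CPM in KO and 998, 1159.5 and 1208 CPM in WT, with KO replicate 3 inside the WT range (edgeR adjusted p = 0.341). Nfatc1 and Lhx2, factors of quiescence and of stem cell maintenance, had overlapping groups and log2 fold changes of -0.22 ± 0.21 and -0.35 ± 0.26. Itga6, the other gate gene kept by the sort, had a log2 fold change of -0.16 ± 0.21.

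Some genes for ion channels and neurotransmitter receptors fell in KO. Of 36 genes in this list 16 were tested, 5 fell and none rose, against 0.457% falling over all genes tested. The list was chosen with earlier results of these data known, so the count is no independent support. Summed over the list the level was 344, 338, 322 and 299.8 CPM in KO and 537, 534 and 512 CPM in WT, with no overlap. The median of the tested members was -0.35, and 5 were positive. Grik1 (chromosome 16, 87895900 to 88290265), a kainate receptor subunit, was at 0, 0.178, 0 and 0 CPM in KO and 8.39, 18.4 and 16.3 CPM in WT. KO replicates 1, 3 and 5 held no count of it. The KO total was 2 counts against 392 in WT, a ratio of 248 by depth with an exact 95% counting interval of 68.3 to 2058 that covers counting error only (edgeR adjusted p = 9.65e-05).

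Kcnk2, a leak potassium channel, was at 42, 23.4, 19.8 and 50 CPM in KO and 109.6, 108 and 119 CPM in WT (log2 fold change -1.91 ± 0.31, edgeR adjusted p = 0.0212). Its WT libraries were close to each other and the KO libraries spread below them. Cacna1c, the pore subunit of an L-type calcium channel, was at 26.6, 24.8, 26.2 and 16.9 CPM in KO and 61.9, 61.7 and 42.4 CPM in WT (log2 fold change -1.39 ± 0.22, edgeR adjusted p = 0.0134). Kcnma1, a calcium-gated potassium channel, and Gabre, a GABA receptor subunit, had log2 fold changes of -2.90 ± 0.51 and -2.32 ± 0.44. The groups did not overlap for any of these. Leave-one-out fits kept Kcnk2 and Cacna1c in 5 of 7, Kcnma1 in 2 and Gabre in 1, and the highest edgeR adjusted p were 0.0802, 0.0741, 0.11 and 0.0984.

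Calcium handling genes had 2 calls, both falls (0.457% over all genes tested), among 33 tested, of which 18 were positive. Camk4, a calcium and calmodulin dependent kinase, was at 1.27, 0.622, 1.52 and 1.13 CPM in KO and 17.6, 23.1 and 21 CPM in WT. All KO libraries lay far below the lowest WT library, and the call held in each leave-one-out fit (log2 fold change -4.34 ± 0.38, edgeR adjusted p = 9.65e-05). Atp2a3, a calcium pump of the endoplasmic reticulum, was at 2.37, 2.49, 2.63 and 2.25 CPM in KO and 25.4, 7.42 and 7.99 CPM in WT, where WT replicate 1 stood far above the other controls (log2 fold change -2.62 ± 0.44, edgeR adjusted p = 0.0195). Its call was lost without KO replicate 1 (0.0534), KO replicate 5 (0.0672) or WT replicate 1 (0.0799). Outside these lists Chat, which encodes the acetylcholine-synthesising enzyme, also fell, with a log2 fold change of -1.03, and 0 of 7 leave-one-out fits kept the call.

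**Figure D4:**
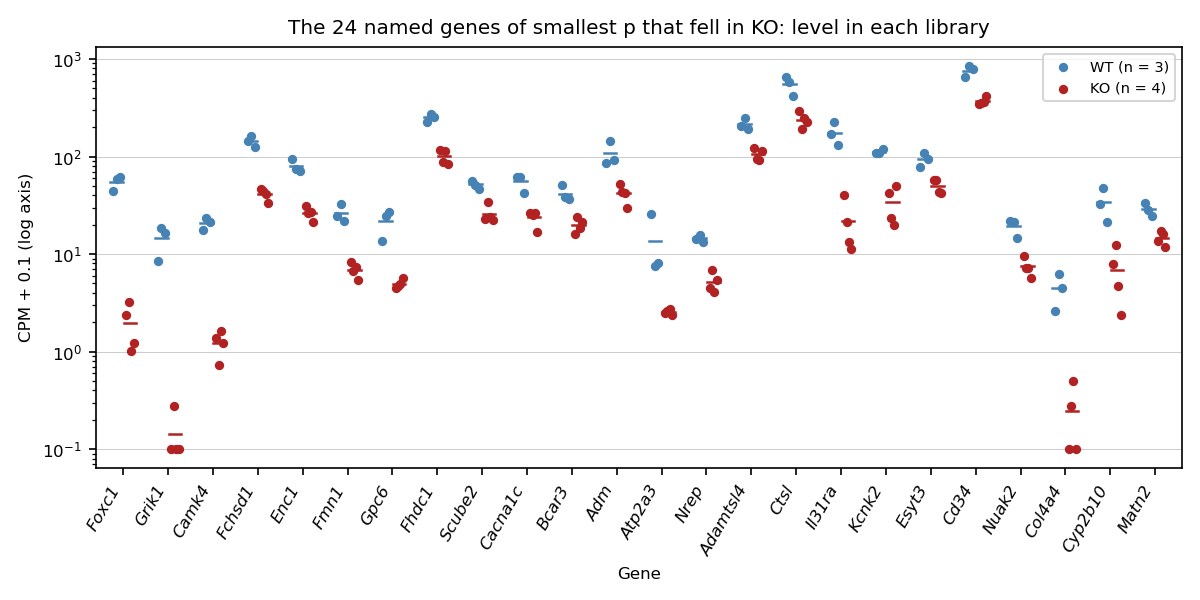
Level in each library, in CPM plus 0.1 on a log axis, of 24 named genes that fell, those of smallest p, Foxc1 first; points are libraries (4 KO, 3 WT) and bars are group means. KO points lie below WT points for each gene, by the widest margin for Foxc1, Grik1 and Camk4.

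The next genes fell and were put together here after the calls were known, not from a list. Fchsd1, a membrane-bending adaptor that acts on actin, was at 46.5, 44, 41.5 and 33.4 CPM in KO and 143, 163 and 126 CPM in WT (log2 fold change -1.97 ± 0.18, edgeR adjusted p = 0.000191). Its groups were wide apart. Fmn1, a formin of actin cables and cell junctions, was at 8.21, 6.57, 7.28 and 5.26 CPM in KO and 24.2, 32.7 and 21.7 CPM in WT, and Fhdc1, another formin-type protein, at 116, 88.1, 113 and 83 CPM in KO and 228, 271 and 257 CPM in WT. Both fell without overlap, by 2.09 and 1.49 on the log2 scale (edgeR adjusted p = 0.00278 and 0.00597). Enc1 (chromosome 13, 97241105 to 97253034), an actin-binding kelch protein, was at 31, 26.2, 26.9 and 21.4 CPM in KO and 95.2, 74.6 and 70.8 CPM in WT. It too was lower in all KO libraries (log2 fold change -1.76 ± 0.19, edgeR adjusted p = 0.000669). Zyx, zyxin of focal adhesions, fell by 1.35 on the log2 scale with 2 of 7 leave-one-out fits keeping the call.

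Cell adhesion lists moved in both directions. Of 31 tested cell-cell adhesion genes 2 rose and 1 fell (0.499% and 0.457% over all genes tested). Ctnnd2, a catenin of the delta type, and Dsg2, a desmosomal cadherin, rose by 1.68 and 1.02, and Fmn1 fell. Ctnnd2 kept its call in 3 of 7 leave-one-out fits and Dsg2 in 2. Cdh1, E-cadherin, was at 1194, 1047, 1543 and 891 CPM in KO and 1247, 1220.4 and 1233 CPM in WT, with overlapping groups, and did not pass (edgeR adjusted p = 0.776). P-cadherin, Cdh3, was at 128, 135, 134 and 76.6 CPM in KO and 157, 149.8 and 163 CPM in WT, lower in each KO library without a call (edgeR adjusted p = 0.259). None of 38 cell-matrix adhesion genes passed in edgeR, and 2 fell by DESeq2. In edgeR 2 were higher and 8 lower at an unadjusted p under 0.05 (6.46% and 5.58% over all genes tested). Their median was -0.32, or -0.15 with scaling by library totals and -0.12 without KO replicate 2 and WT replicate 3. Itga5, the fibronectin receptor subunit, had the smallest p of that list (log2 fold change -0.96 ± 0.21, edgeR adjusted p = 0.0505). Icam1, an adhesion ligand for leukocytes, was at 416, 389, 466 and 411 CPM in KO and 193, 95.9 and 161 CPM in WT, higher in all KO libraries (log2 fold change 1.35 ± 0.24, edgeR adjusted p = 0.0236). Icam1 kept its call in 3 of 7 leave-one-out fits.

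Matrix and proteoglycan genes changed individually. Gpc6, a glypican of the cell surface, was at 4.40, 4.62, 4.85 and 5.63 CPM in KO and 13.7, 24.2 and 26.6 CPM in WT, and fell by 2.34 in log2 units (edgeR adjusted p = 0.00379). Bgn, biglycan, a small secreted proteoglycan, was at 81, 109, 136 and 137 CPM in KO and 34.8, 30.6 and 24.8 CPM in WT, and rose by 1.79 (edgeR adjusted p = 0.00533). Neither gene's groups overlapped and both calls held in every leave-one-out fit. Ecm1, extracellular matrix protein 1, was at 594, 439, 656 and 506 CPM in KO and 985, 1294 and 1297 CPM in WT, lower in each KO library (log2 fold change -1.28 ± 0.24, edgeR adjusted p = 0.0304). Col4a4, a basement membrane collagen chain, was near 0 in KO, at 0, 0.178, 0.404 and 0 CPM, and at 2.50, 6.21 and 4.40 CPM in WT. Ecm1 kept its call in 3 of 7 leave-one-out fits and Col4a4 in 4. Bgn is also a fibroblast gene: the summed level of 22 fibroblast and dermal papilla markers was 2456, 6329, 1968 and 1421 CPM in KO and 2595, 995 and 1665 CPM in WT, overlapping and highest in KO replicate 2. Bgn itself was highest in KO replicates 3 and 5 and the part of such cells in its rise was not tested.

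Among cytokine genes, 2 of 38 tested rose and 1 fell (0.499% and 0.457% over all genes tested). Il31ra (chromosome 13, 112519898 to 112594360), the receptor for the itch cytokine IL-31, was at 40.4, 21.4, 13.3 and 11.3 CPM in KO and 170.2, 227 and 130.2 CPM in WT. KO replicate 1, the highest of its group, still lay far below WT replicate 4, the lowest of the controls (log2 fold change -3.18 ± 0.43, edgeR adjusted p = 0.0204), and the call was lost without KO replicate 2 (0.0724) or WT replicate 3 (0.0516). Il1rn, which blocks the IL-1 receptor, was at 52.8, 56.4, 53.4 and 48.8 CPM in KO and 24.1, 14.4 and 24.8 CPM in WT (log2 fold change 1.17 ± 0.21, edgeR adjusted p = 0.0217). It was the only call among 16 tested wound keratinocyte genes (0.499% rising over all genes tested), and Krt6a in that list overlapped between groups. Il6ra, the IL-6 receptor, rose by 1.03. Il1rn kept its call in 4 of 7 leave-one-out fits and Il6ra in 3.

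Genes of antigen presentation, B2m and Psmb8, rose in KO. Of 29 tested interferon and antigen genes 2 rose (0.499% over all genes tested), and 23 were positive with a median of 0.52. For 17 the KO libraries lay wholly above WT (9.75% over all genes). Summed, the list was at 4080.1, 4961, 4265 and 4563 CPM in KO and 2430.5, 1879 and 2671 CPM in WT. B2m, the light chain of MHC class I, was at 728, 900.1, 838 and 1151 CPM in KO and 355, 301 and 442 CPM in WT, with no overlap (log2 fold change 1.15 ± 0.24, edgeR adjusted p = 0.0385). Psmb8, a subunit of the immunoproteasome, was at 38.6, 64.7, 41.6 and 42.4 CPM in KO and 13.2, 8.16 and 20.1 CPM in WT, highest in KO replicate 2 (log2 fold change 1.60 ± 0.27, edgeR adjusted p = 0.0204). The calls were lost without KO replicate 5 (0.0672), WT replicate 1 (0.0633) or WT replicate 3 (0.0802) for Psmb8, and for B2m in 6 of 7 leave-one-out fits. Psmb9 and H2-D1, named after their values were seen, did not overlap and did not pass (edgeR adjusted p = 0.0812 and 0.12).

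Markers of other cells that such a sort could hold were set beside these. Of 16 tested immune genes none passed in edgeR, and DESeq2 called 1 each way. In edgeR 1 was higher and 1 lower at an unadjusted p under 0.05 (6.46% and 5.58% over all genes tested). In all 14 were positive, with a median of 0.92, and without KO replicate 2 and WT replicate 3 there were 10 positive with a median of 0.30. Without Epcam, an epithelial gene that also marks Langerhans cells, their summed level was 196, 385, 174 and 109.7 CPM in KO and 196, 56.2 and 67.4 CPM in WT, which overlap. Ptprc, which marks all white blood cells, was at 1.27, 7.29, 4.45 and 1.13 CPM in KO and 0.536, 0.0927 and 0.816 CPM in WT, higher in KO and low throughout, while Cd68, a macrophage gene, was lower in KO, at 11, 13.6, 13 and 14.3 CPM against 19.5, 30 and 19.6 CPM. Cd8a, a T cell gene, had no count in any of the 7. Endothelial markers summed to 83.6, 79.8, 52.1 and 54.8 CPM in KO and 59.8, 10.7 and 54.2 CPM in WT, lowest in WT replicate 3. The part of these cells in the results on antigen presentation and on cell division was not tested.

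Dct, an enzyme of melanin synthesis, was at 17.8, 8.35, 7.58 and 10.1 CPM in KO and 2.05, 2.32 and 1.30 CPM in WT (log2 fold change 2.34 ± 0.43, edgeR adjusted p = 0.0274). It was the only call among 8 tested melanocyte genes (0.499% rising over all genes tested). Of the 8, 7 were positive with a median of 1.35. Tyr and Tyrp1, the other melanin enzymes, stood higher in KO too, at 1.86, 1.24, 1.31 and 0.376 and 11.8, 3.29, 4.75 and 7.51 CPM against 0.0893, 0 and 0 and 1.34, 2.04 and 0.489 CPM, and did not pass (edgeR adjusted p = 0.108 and 0.124). Mitf, the melanocyte factor that keratinocyte stem cells can also express, went the other way, with 73.5, 66.8, 55.7 and 62.7 CPM in KO and 76.9, 131 and 120.0 CPM in WT (edgeR adjusted p = 0.0621). These last 3 were named after their values were seen. The summed melanocyte markers, Mitf included, were at 124, 108, 82.3 and 100.3 CPM in KO and 91.4, 149 and 125 CPM in WT and overlap. The call for Dct was lost without KO replicate 1 (0.0721), KO replicate 5 (0.0765), WT replicate 1 (0.075), WT replicate 3 (0.0802) or WT replicate 4 (0.102), and the part of melanocytes in it was not tested.

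Of 32 tested epidermal differentiation genes 2 fell, against 0.457% over all genes tested, and none rose. They were Sbsn, a secreted protein of the upper epidermis, and Krt80, a keratin of differentiating cells. Sbsn was at 857, 888, 866 and 838 CPM in KO and 1754, 1399 and 1497 CPM in WT, with KO libraries close together and below all WT libraries (log2 fold change -1.01 ± 0.19, edgeR adjusted p = 0.0304). Sbsn kept its call in 2 of 7 leave-one-out fits and Krt80 in 1. None of the 15 hair germ, matrix and shaft genes tested passed in edgeR, and DESeq2 called 1 each way. In edgeR 1 was higher and 4 lower at an unadjusted p under 0.05 (6.46% and 5.58% over all genes tested). Neither tool called any of 17 sebaceous and isthmus genes, of which 1 was higher at an unadjusted p under 0.05 in edgeR. Gata3 and Ovol1, hair lineage factors, had log2 fold changes of 0.59 ± 0.20 and -1.14 ± 0.31.

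Lists of metabolic, detoxification and lysosome genes held 1 or 2 calls each or none. Slc2a1, the glucose transporter GLUT1, was at 435, 404, 457 and 430.5 CPM in KO and 703, 898 and 706 CPM in WT (log2 fold change -1.0 ± 0.21, edgeR adjusted p = 0.0411). Of 22 glucose and hypoxia genes it was the only 1 to pass (0.457% falling over all genes tested). Its KO libraries all lay below the controls, and 2 of 7 leave-one-out fits kept the call. Mt1, a metal-binding metallothionein, was at 634, 883, 626 and 1069.8 CPM in KO and 267, 308 and 279 CPM in WT, higher in each KO library (log2 fold change 1.32 ± 0.24, edgeR adjusted p = 0.0249). Cyp26b1, which degrades retinoic acid, and Cyp2b10, a xenobiotic oxidase, fell by 1.40 and 2.48 on the log2 scale. In the lysosome list, Ctsl, the protease cathepsin L, was at 290.1, 193, 247 and 225 CPM in KO and 654, 580.5 and 418 CPM in WT, a fall (edgeR adjusted p = 0.0204), and Atp6v1b1, a proton pump subunit, rose from 3.75, 0.556 and 1.63 CPM in WT to 26.1, 27.9, 7.98 and 15.8 CPM in KO. Leave-one-out fits kept Ctsl in 4 of 7, Mt1 in 3, Cyp2b10 and Atp6v1b1 in 2 each and Cyp26b1 in 1. None of 26 sterol and lipid synthesis genes passed in edgeR, and DESeq2 called 1 each way. In edgeR 1 was higher and 1 lower at an unadjusted p under 0.05 (6.46% and 5.58% over all genes tested).

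Lists that track sample handling had no edgeR calls. Of 34 early response genes known to be induced by dissociation of tissue, 11 were lower at an unadjusted p under 0.05, against 5.58% of all genes tested, and 5 fell by DESeq2. In all 7 were positive with a median of -0.37, or -0.19 with scaling by library totals, and 13 with a median of -0.12 without KO replicate 2 and WT replicate 3. Their sums were 46266, 46299, 39212 and 45751 CPM in KO and 45699.6, 65114 and 52374 CPM in WT, highest in WT replicate 3. Ribosomal protein genes were positive in 41 of 42 cases with a median of 0.20, and mitochondrial respiration genes in 27 of 29 with a median of 0.18 (22 and 0.063 without KO replicate 2 and WT replicate 3). At an unadjusted p under 0.05 in edgeR none of the first and 3 of the second were higher (6.46% over all genes tested). DESeq2 called none and 1. The part of these shifts in the calls was not tested.

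The strand option used in counting is not given in the sources used here, so reads of overlapping genes on opposite strands may not have been told apart. Among the genes described, the share of exonic bases that overlap another gene was 29.3% for Kif20a (Cdc23), 27.1% for Fchsd1 (Rell2), 26.8% for Ctsl (Gm47123) and 22.8% for Ube2c (Tnnc2).

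The same genotypes had been sequenced in anagen, in 2 KO and 3 WT libraries of mice aged 29 to 31 days by title, 1 with an age label of 43 days, and these share no library with early telogen. No gene passed there among 14409 tested with edgeR, and 7 rose and 147 fell in the fit of all 12 libraries. The fit of the 5 alone gave 488 higher (3.39%) and 968 lower (6.72%) at an unadjusted p under 0.05. In early telogen the same unadjusted rule gave 777 higher (6.46%) and 671 lower (5.58%). Of the 60 genes that rose in early telogen, 50 were positive in anagen, median 0.79 against 0.02 over all genes tested there, and 7 were higher and 2 lower at an unadjusted p under 0.05. For the 20 cell division genes, 20 were positive with a median of 1.03 and none reached an unadjusted p under 0.05. Mki67, for instance, had an anagen log2 fold change of 1.16 ± 0.87.

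Of the 54 genes that fell besides Foxc1, 48 were negative in anagen, with a median of -1.54, and 36 were lower at an unadjusted p under 0.05, beside 6.72% of all genes. Camk4 was at -3.83 ± 0.80, Grik1 at -5.95 ± 1.70, Il31ra at -4.39 ± 1.0 and Cd34 at -1.22 ± 0.35 on the log2 scale in anagen. The anagen KO libraries were both female by label, while 1 WT library was female and 2 were male, so that genotype and sex cannot be fully told apart in that stage.

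**Figure D5:**
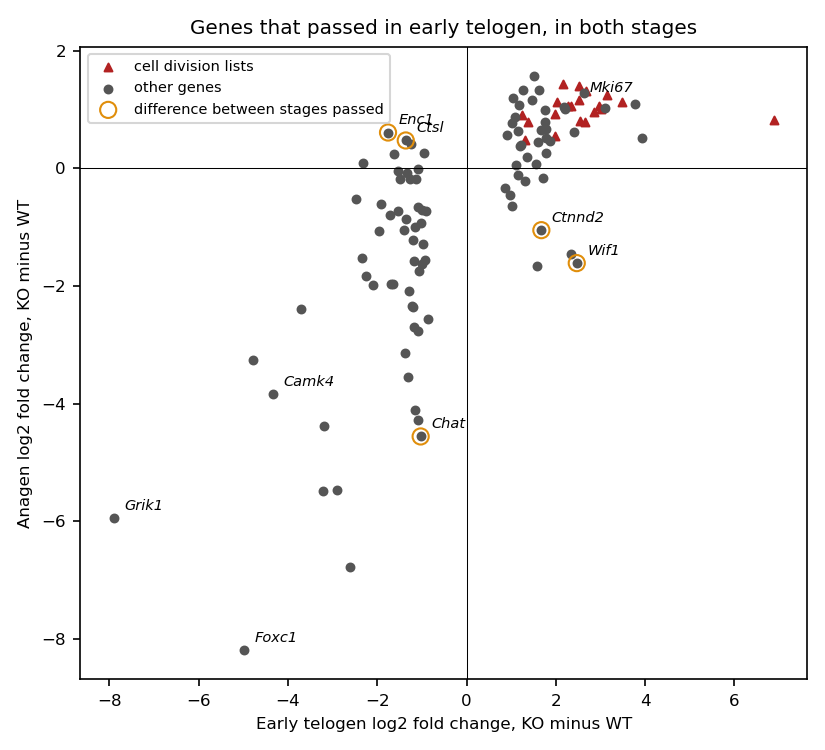
Anagen log2 fold change, KO minus WT, against that in early telogen for the genes that passed in early telogen; triangles are cell division genes and rings mark genes whose difference between stages passed. Most genes that fell in early telogen lie in the lower left, 48 of 54 besides Foxc1, and Wif1 and Ctnnd2 lie at the lower right.

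Whether the KO effect differed by stage was fitted over all 12 libraries. It did for 19 of 13193 genes (0.144%), 5 of which had also passed in early telogen. Wif1 rose in early telogen and had an anagen log2 fold change of -1.61 ± 0.39, a difference of 4.06 (edgeR adjusted p = 0.00585). Ctnnd2, likewise, was at -1.05 ± 0.35 in anagen (difference 2.71, edgeR adjusted p = 0.0229). Enc1 and Ctsl fell in early telogen and had anagen values of 0.61 ± 0.36 and 0.47 ± 0.21 (differences -2.39 and -1.86, edgeR adjusted p = 0.0229 and 0.0428). Chat was lower in both stages and lower by more in anagen, at -4.56 ± 0.61 (difference 3.50, edgeR adjusted p = 0.0229). Leaving out 1 library at a time gave 0 to 55 such genes, 0 without anagen KO replicate 2, 1 without anagen KO replicate 1 and 2 without early telogen WT replicate 3. For Mki67 the difference was 1.33 (edgeR adjusted p = 0.921), so a larger rise in early telogen than in anagen was not shown.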

How the data were processed

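RNA of sorted mouse hair follicle stem cells was sequenced in 4 KO and 3 WT early telogen libraries and, for the comparison of stages, in 2 KO and 3 WT anagen libraries. Oligo(dT) selection and a directional library kit were used, per the labels. Per the submitters' processing notes, reads were aligned with TopHat2 to mm10 and counted with HTSeq. Versions and the strand option are not given in the sources used here. The authors deposited raw counts per gene, 1 table per stage. The early telogen table held 37958 genes after 3 broken lines were dropped, and 27 of its names had become dates. A further 872 names of the anagen table are absent from it, such as Plk1, and are not analysed here. Nothing in the labels says that replicates were separate animals, so p-values measure the spread between samples, which may be technical.

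Counts were tested with edgeR 4.0.16 (R 4.3.3), its quasi-likelihood test with robust dispersions, TMM scaling and the filter filterByExpr (count of 10 and total of 15 at least). P-values were adjusted by Benjamini-Hochberg over all genes of a table, with a threshold of 0.05. Foxc1 genotype was fitted on the 7 libraries with no covariate. The difference between stages was a contrast over 12 libraries. CPM used library totals over genes, so CPM are not TMM-scaled. Levels are not divided by gene length and are not compared between genes. Counting intervals and floors cover counting error only. Scripts were tested on simulated counts. The members and the 40 gene lists were chosen with earlier results of these data known. Values by library were given for Foxc1, the 12 genes of smallest p in each direction, up to 4 called members per list (2 of smallest p where none passed) and a fixed set of stem cell genes; others are marked as named after their values were seen or passed the threshold. A few genes the rule names are not reported here. Promoters came from RefSeq (GRCm38.p6, first entry per gene), gene coordinates from GENCODE on GRCm38. The alternatives were library totals, DESeq2 1.42.0, limma 3.58.1 voom, other filters, thinning, sex as covariate, female libraries only, a replicate block, all 12 libraries and leaving out libraries.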

Additional observations from a re-analysis of the deposited data

Results flagged for a closer look

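Wif1, Enc1, Chat, Ctnnd2 and Ctsl are listed because their KO effect differed between early telogen and anagen in a test of the difference (edgeR over all 12 libraries, early telogen minus anagen on the log2 scale). The differences were 4.06 for Wif1, -2.39 for Enc1, 3.50 for Chat, 2.71 for Ctnnd2 and -1.86 for Ctsl. Their values in both stages are given above.

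For 6 of the 115 genes that passed, 1 KO library lay far from the other 3, by the gap to its neighbour relative to the range (Dixon's 95% critical value of 0.829 for 4 samples). Chance alone marks about 1 in 20 groups. Scube2 was at 34.3 CPM in KO replicate 2 against 22.2 to 23.8 in the others, nearest to the WT libraries. Psmb8 was at 64.7 CPM in KO replicate 2 against 38.6 to 42.4. Pdgfc was at 13.4 CPM in KO replicate 1 against 18.4 to 18.9. In KO replicate 3, Mdfic, a transcriptional regulator of the MyoD family inhibitor type, was at 21.6 CPM against 17.4 to 18, Wnk4, a kinase of ion transport, at 17.2 CPM against 25.9 to 26.5, and BC034090 at 3.34 CPM against 8.21 to 9.02.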

How the results depend on the processing

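Foxc1 passed under every alternative run in early telogen. Against 60 genes higher, 55 lower and 20 cell division genes higher, DESeq2 gave 217, 182 and 60, no filter on low counts 167, 171 and 51, limma-voom 28, 32 and 8, and the fit of all 12 libraries 12, 27 and 0. Library totals gave 95 higher and sex as a covariate 88 lower. Female libraries only gave 30, 19 and 10, and leaving out KO replicate 2 and WT replicate 3 together 25, 22 and 7. Leaving out 1 library gave 9 to 61 higher, 10 to 78 lower and 4 to 14 cell division genes. With the replicate number as a block, 4, 7 and 1 passed. Only numbers 1 and 3 occur in both groups. Deviations of same-numbered libraries correlated at 0.106 and 0.0532, and those of differently numbered libraries at -0.141 to 0.124. Whether libraries of the same number were paired cannot be told from so few pairs. The cause of these shifts was not tested. For the difference between stages (19 genes), DESeq2 gave 148, no filter 409 and leaving out 1 library 0 to 55. No gene called in early telogen changed direction. Among the 72 uncalled genes followed across these settings, those that changed sign were Tcf7l1 (-0.34 to 0.029 with 1 library left out, 0.19 without KO replicate 2 and WT replicate 3), Lgr5 (-0.011 to 0.25 with 1 library left out), and Itga6 (0.021) and Cdh1 (0.029) with the block. Depth was lowest in KO replicate 5; with all libraries thinned to its total, 58 rose and 61 fell.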
